A study of Danio rerio with 24 samples.

Results

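The 26S proteasome genes of the zebrafish larval liver were examined across the 4 conditions of a bulk RNA experiment. Members were the genes of the count table whose symbol begins with psm, a letter from a to g and a digit, and whose estimated counts summed to at least 100 over its 18 libraries. Of 19793 genes in the table, 46 had such a symbol and 43 were members. The gene nearest above the minimum was *psmb12*, with 110 counts in all, and the nearest below it was *psme4b*, with 67, while *psmb11a* and *psme3* were listed at 0 in every library. A gene entered the tests with 5 or more reads in 0.8 or more of all libraries, as a share, which left 11489 genes and 42 of the 43 members, all but *psmb12*. *psmc3ip* fitted the symbol rule but encodes a protein of meiotic recombination, so it was kept apart from the subunits. No sequence is printed, as no sequence of these genes was used here. None of the 46 symbols was *psmb8a*, *psmb9a* or *psmb13a*, so these subunits were not analysed here in the 40-liver libraries. Nor were *psmc3*, *psmc5*, *psmd1*, *psmd3*, *psmd8* and *psmd13* among the 46, so the immune, base and lid sets are not complete.

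The 6 *mtm* libraries came from homozygous carriers of a loss-of-function mutation in *mtm1*, a phosphoinositide phosphatase gene. The 4 EtOH libraries came from WT larvae kept in 2% ethanol for 32 hours, the 4 overfed libraries from WT larvae given 6 times the usual food, and the 4 WT libraries, labelled AB after the strain, from larvae left untreated. Each library pooled 40 livers dissected at 7 days post fertilization (dpf). Of the *mtm* libraries, R1, R2 and R3 bear a resubmission mark, R1 under one date and R2 and R3 under another. Replicates 1, 2 and 3 carry no such label. Whether those of the resubmission are pools of their own is not in the labels. The number of replicates per group that the paper states is smaller than 6, so the 6 *mtm* libraries may not all be independent. The p-values measure the spread between these libraries, which may in part be technical. A separate experiment compared livers of *abcb11b* mutants with those of WT siblings at 6 dpf, in pools of 20 livers. Its columns all carry DMSO, a solvent, in their names, so that both of its groups share it.

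The proteasome degrades proteins tagged with ubiquitin. Its barrel, the 20S core, is built of outer alpha rings, which gate entry, and inner beta rings, which hold the cutting sites. The 19S cap sits on the barrel, with a base whose ATPases unfold the substrate and a lid that removes the ubiquitin. In cells of the immune system or under interferon, other beta subunits replace the catalytic ones and change which peptides are made for antigen presentation. In animals the transcription factor NFE2L1 raises the core and cap genes together when proteasome activity falls short.

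Library totals lay between 8919274 and 20582311 counts, and the members held 0.146% to 0.389% of them. The targeted gene *mtm1* was at 0.159 to 2.38 CPM (counts scaled to library size) in the *mtm* libraries, against 3.23 to 7.92 CPM in WT libraries, and all *mtm* libraries lay below all WT libraries. EtOH replicate 1 also had only 3 *mtm1* counts (0.175 CPM). *mtm* R2 and EtOH replicate 1 had the fewest genes with at least 5 reads (11571 and 12104), against 12507 to 14208 in the other libraries. The summed level of 9 hepatocyte markers, a check of the labelled tissue, was 39925 to 217985 CPM in *mtm* and 109293 to 188015 CPM in EtOH libraries, against 211443 to 353832 CPM in WT libraries. *mtm* replicate 1 stood apart at the upper end, with the other 5 *mtm* libraries at 39925 to 89337 CPM. It also held 22053 CPM of exocrine pancreas markers, against 268 to 6966 CPM in the other *mtm* libraries. WT replicates 2 and 4 held 13374 and 72084 CPM of these pancreas markers, against 2542 and 1363 CPM in WT replicates 1 and 3. EtOH replicate 3 held 32575 CPM of them, against 3002 to 9391 CPM in the other EtOH libraries. The sum of 13 skeletal and heart muscle markers was 4406 CPM in EtOH replicate 2. It was 389 to 697 CPM in the other EtOH libraries and 216 to 594 CPM in WT libraries. Of the 9 hepatocyte markers, all tested, 2 had a positive log2 fold change in *mtm* and 4 in EtOH versus WT livers. The hepatocyte sums thus do not describe every gene. In pooled livers, fewer cells of a type cannot be told apart from less RNA per cell.

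No proteasome gene passed the test between *mtm* and WT livers, while 10.1% of all tested genes rose and 8.59% fell between them. Of the 42 members tested in *mtm* versus WT livers, 0 rose and 0 fell at an adjusted p under 0.05 by edgeR's quasi-likelihood test. The p-values of all tested genes were adjusted after Benjamini-Hochberg. An unadjusted p under 0.05 was found for 3 of 42 members, against 3490 of 11489 genes. DESeq2 called 2 members higher, and its calls over all genes were not counted, here or below. The median log2 fold change of the 42 members was −0.06, against 0.01 over all tested genes, and 17 of 42 were positive. Groups did not overlap for 0 members in either direction, against 6.88% of all genes higher and 6.58% lower. These tests do not show that levels were equal. For the 28 core, base and lid subunits other than *psma6l*, log2 fold changes ran from −0.36 to 0.37, with standard errors of 0.20 to 0.39.

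In EtOH livers 1 of 42 members rose and 0 fell by the same test, against 4.66% and 2.7% of all genes. An unadjusted p under 0.05 was found for 3 members, against 2386 of 11489 genes, and DESeq2 called 3 members higher. The median log2 fold change of the members was 0.19, against −0.03 over all genes. Without overlap between EtOH and WT libraries, 3 members were higher (7.14%) and 1 was lower (2.38%), against 8.06% and 7.63% of all genes. The share of higher members was near that of all genes, so that nothing is read from it, and the single lower one was *psmc3ip*. In overfed livers 0 members rose and 0 fell, as did 0% of all genes in each direction. Here 3 members had an unadjusted p under 0.05, against 493 of 11489 genes, and DESeq2 called 0 members. In a direct comparison of *mtm* with EtOH livers 0 members were higher and 0 lower, against 2.87% and 4.2% of all genes. An unadjusted p under 0.05 was found for 2 members, against 2641 of 11489 genes, and DESeq2 called 1 member lower. There, 0 members were without overlap in either direction, against 3.65% of all genes higher and 4.65% lower in *mtm* livers. The *mtm*, EtOH and overfed comparisons share the 4 WT libraries.

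**Figure D1:**
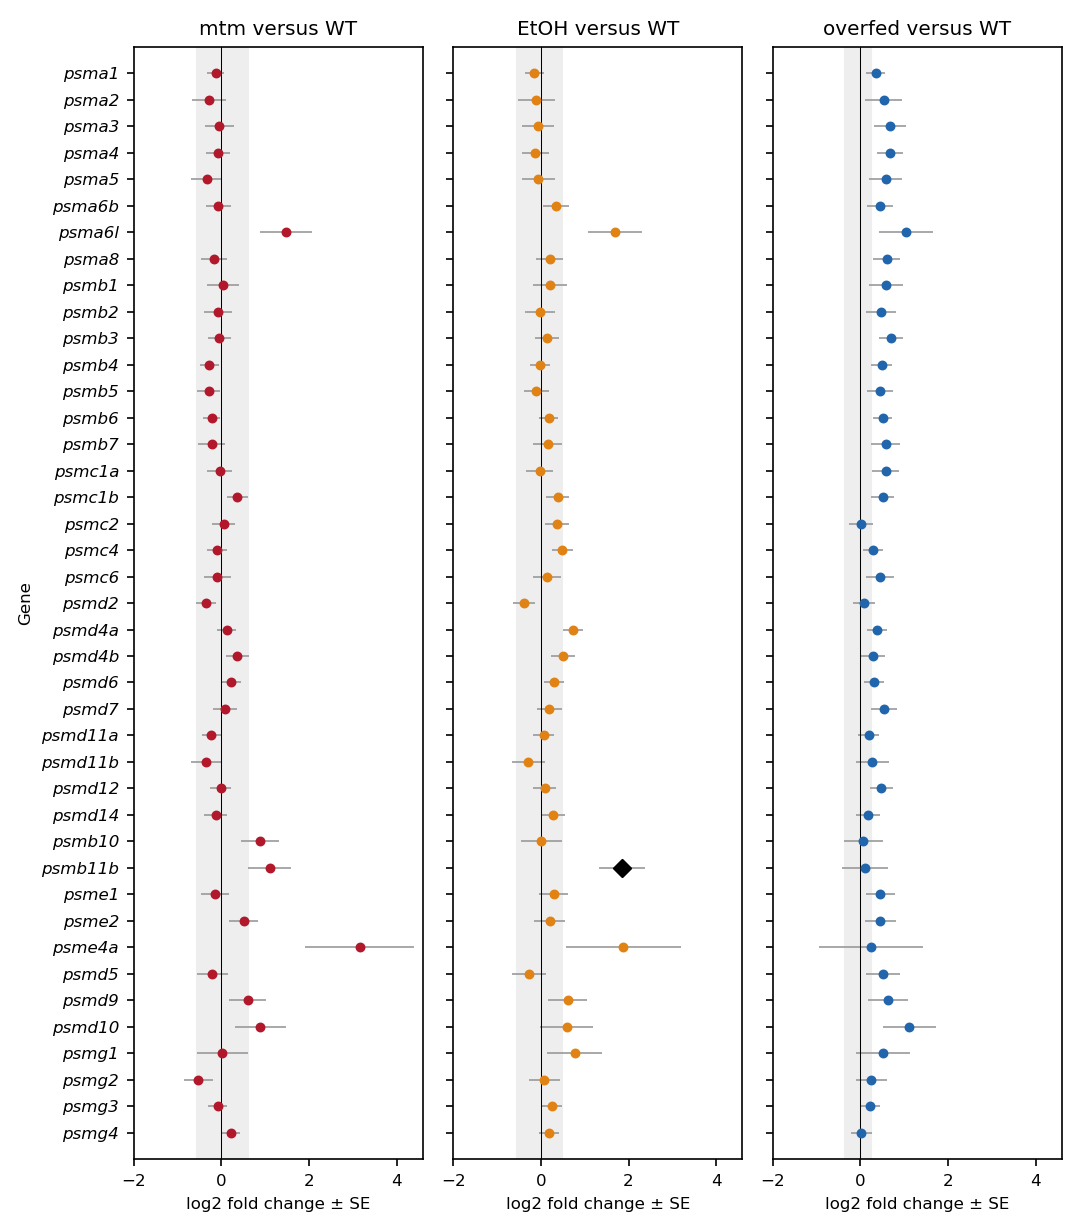
log2 fold change (x axis) of 41 proteasome genes, ordered by role from the alpha ring at the top to the assembly chaperones, in *mtm*, EtOH and overfed livers against WT livers, with bars of 1 standard error; grey bands hold the middle 50% of all 11489 tested genes and the black diamond marks an adjusted p under 0.05. Only *psmb11b* in EtOH livers is so marked, and all 41 points lie above 0 in overfed livers.

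The alpha ring had 8 members, of which *psma1* to *psma5*, *psma6b* and *psma8* had log2 fold changes of −0.33 to −0.04 in *mtm* versus WT livers. *psma1* was at 165, 184, 148, 103.1, 124 and 137 CPM in *mtm* replicates 1, 2, 3, R1, R2 and R3, against 168, 141, 179 and 131 CPM in WT replicates 1 to 4. The WT values lay inside the range of the *mtm* values (−0.13 in log2 fold change, standard error 0.20). *psma5* had the smallest value of the ring, with 24.3 to 112 CPM in *mtm* and 56.5 to 109 CPM in WT libraries (−0.33, standard error 0.35). The low end was *mtm* R2, which was also lowest for *psma2* (6.60 CPM, against 41.3 to 68.8 CPM in the other *mtm* libraries) and *psma3* (32.6 CPM, against 92.2 to 158 CPM). The *psma5* value was −0.14 without *mtm* R2, −0.68 without *mtm* replicate 2, −0.04 with the *mtm* libraries not marked as resubmitted alone and −0.73 with the resubmitted ones alone. In EtOH livers the median of the ring was −0.06.

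*psma6l*, the alpha-ring gene named as like *psma6*, had a larger positive value than the rest of the ring. It was at 1.07, 9.34, 13.6, 11.1, 6.37 and 7.46 CPM in *mtm* replicates 1, 2, 3, R1, R2 and R3, against 3.70, 1.24, 4.89 and 1.62 CPM in WT replicates 1 to 4. All *mtm* libraries but replicate 1 lay above every WT library. The log2 fold change was 1.47 (standard error 0.60, unadjusted p = 0.0247), and the adjusted p of 0.0993 did not pass (edgeR quasi-likelihood, Benjamini-Hochberg). Without *mtm* replicate 1 it was 1.76 with an adjusted p of 0.0123 by edgeR with Benjamini-Hochberg. EtOH libraries held 15.2, 3.25, 11.2 and 6.27 CPM (1.69, standard error 0.62, adjusted p = 0.114, and 0.0369 without *mtm* replicate 1, by the same edgeR test) and overfed libraries 4.12 to 6.70 CPM (1.05, standard error 0.62). In *mtm* and in EtOH livers alike, *psma6l* passed in 3 of 28 alternatives. Of the 18 fits with 1 library left out it passed in 1, that without *mtm* replicate 1. Its namesake *psma6b* was at 27.7 to 47.0 CPM in *mtm* and 19.7 to 54.3 CPM in WT libraries (−0.08). The log2 ratio of *psma6l* to *psma6b*, a pair chosen after its values were seen, was 1.39 higher in *mtm* than in WT livers (two-sided exact permutation test, p = 0.0619, adjusted p = 0.178 over the 16 ratio tests). Salmon divides reads shared by near-identical transcripts, so levels of such pairs are less certain.

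The constitutive beta ring was covered by *psmb1* to *psmb7*, and *psmb5*, *psmb6* and *psmb7* carry the cutting sites. *psmb7*, which cuts after basic residues, was at 80.3 to 210 CPM (median 133) in *mtm* libraries, against 203, 85.9, 230 and 141 CPM in WT libraries. The groups overlapped (log2 fold change −0.22, standard error 0.31). *psmb5*, which cuts after hydrophobic residues, was the lowest of the ring in this comparison (−0.29, standard error 0.27), and *psmb1*, which has no cutting site, the highest (0.03, standard error 0.36). *psmb5* was at 61.3 to 127 CPM in *mtm* and 65.2 to 146 CPM in WT libraries. The ring's median was −0.22 in *mtm*, 0.14 in EtOH and 0.51 in overfed livers.

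The base ATPases *psmc1a*, *psmc1b*, *psmc2*, *psmc4* and *psmc6* had a median log2 fold change of −0.04 in *mtm* and 0.37 in EtOH livers. *psmc4* was at 50.8 to 99.4 CPM in *mtm* libraries, against 64.7 to 121 CPM in WT libraries (−0.10, standard error 0.22). In EtOH libraries it was at 163, 94.3, 123 and 125 CPM (0.49, standard error 0.23, unadjusted p = 0.0521). EtOH replicate 1 was the highest of all 18 libraries. *psmc1b* had the largest value of the ATPases in *mtm* livers (0.37, standard error 0.24), with 45.8 to 88.2 CPM in *mtm* and 34.1 to 62.8 CPM in WT libraries.

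Among the other base subunits, *psmd2*, a scaffold that docks ubiquitin-like domains, was at 77.9, 68.7, 45.6, 61.1, 61.8 and 39.7 CPM in *mtm* replicates 1, 2, 3, R1, R2 and R3, against 77.9, 98.5, 66.7 and 63.8 CPM in WT libraries. Its log2 fold change was −0.36 (standard error 0.23) in *mtm* and −0.38 (standard error 0.25) in EtOH livers, neither of which passed the test. *psmd4a* and *psmd4b* encode copies of a ubiquitin receptor. *psmd4b* was at 27.1 to 51.6 CPM in *mtm* and 22.04 to 33.6 CPM in WT libraries (0.36, standard error 0.26). *psmd4a*, singled out after its values were seen, was at 107, 72.0, 78.7 and 83.3 CPM in EtOH libraries, against 60.8, 38.8, 66.0 and 40.9 CPM in WT libraries. The groups did not overlap, and the log2 fold change of 0.73 (standard error 0.23) had an adjusted p of 0.0612 (edgeR quasi-likelihood, Benjamini-Hochberg), and of 0.0256 in DESeq2. It passed in 7 of 28 alternatives, and its adjusted p ran up to 0.200 (edgeR) in the others. Among the 18 fits with 1 library left out it passed in 3, without WT replicate 3 (0.0490), *mtm* R2 (0.0490) or *mtm* replicate 2 (0.0466). In *mtm* libraries it was at 48.7 to 72.4 CPM, which is 0.62 lower than in EtOH livers on the log2 scale (−0.62, adjusted p = 0.0871, and 0.0494 without *mtm* replicate 2, in the same edgeR test). That difference passed in 2 of 28 alternatives.

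The 6 lid members had a median log2 fold change of −0.07 in *mtm*, 0.14 in EtOH and 0.29 in overfed livers. *psmd14*, the lid enzyme that removes ubiquitin chains, was at 43.4 to 67.6 CPM in *mtm* libraries, against 43.3 to 78.9 CPM in WT libraries (−0.13, standard error 0.26). *psmd6* had the largest value of the lid in *mtm* livers (0.23, standard error 0.21), with 59.097 to 102 CPM in *mtm* libraries. In EtOH libraries *psmd6* was at 89.5, 79.9, 88.2 and 80.6 CPM, against 79.3, 58.6, 75.2 and 61.3 CPM in WT libraries. The EtOH values lay just above the WT values (0.30, standard error 0.23, adjusted p = 0.502 by edgeR quasi-likelihood, Benjamini-Hochberg). *psmd11b* had the smallest value of the lid in *mtm* livers (−0.35, standard error 0.34), with *mtm* R2 at 8.12 CPM and the other *mtm* libraries at 22.4 to 41.0 CPM, against 21.5 to 45.6 CPM in WT libraries.

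Most core, base and lid genes moved together from library to library, with *psmd2* and *psmd6* among the exceptions. Over the 18 libraries, which share depth and composition within a library, the median Pearson correlation between pairs of the 15 core genes was 0.77, and 0.69 after group means were taken out, against 0.003 between all genes. It was 0.52 among the 14 base and lid genes and 0.37 among the 7 assembly chaperones. Counts of members are therefore not counts of independent genes. Each library's median over the 29 core, base and lid members was taken as log2 CPM against the mean of the WT libraries. It was −0.08, 0.44, 0.12, −0.08, −0.51 and −0.22 in *mtm* replicates 1, 2, 3, R1, R2 and R3, against 0.25, −0.42, 0.44 and −0.22 in WT replicates 1 to 4. EtOH libraries were at 0.48, −0.11, 0.09 and 0.17. The WT libraries alone thus spanned nearly the range of the *mtm* libraries. By submission, the median log2 fold change of the 29 members was 0.16 with *mtm* replicates 1, 2 and 3 alone and −0.33 with the resubmitted ones alone, against −0.08 with all 6. It was 0.02 without *mtm* R2, 0.02 without *mtm* R3 and 0.06 without WT replicate 3, so its sign was not settled. In EtOH livers it was 0.15, −0.03 without WT replicate 2 and 0.31 without WT replicate 3.

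**Figure D2:**
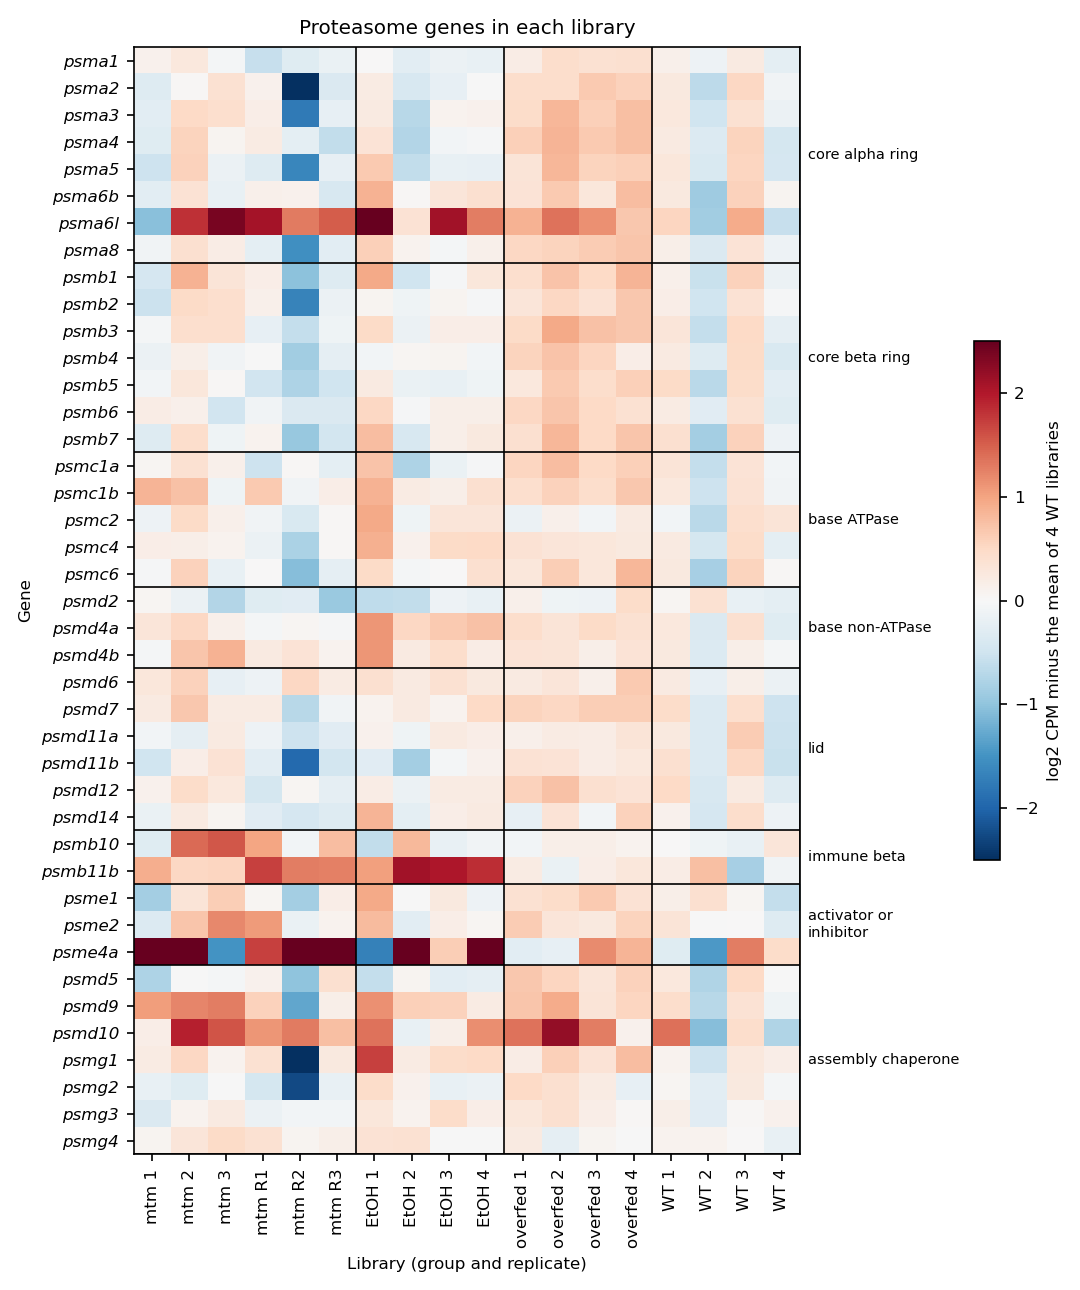
Each column is 1 library and each row 1 of 41 proteasome genes grouped by role; colour gives log2 CPM minus the mean of the 4 WT libraries, with the scale ending at 2.5 in each direction. Many core and cap rows share their shade within a library, though less so in *mtm* R2 and EtOH replicate 1. *mtm* R2 is low for *psma2*, *psmg1* and *psmg2*, and *psma6l*, *psmb11b* and *psme4a* have a pattern of their own.

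Overfed livers showed small positive differences across nearly all members, none of which passed the test. The median log2 fold change was 0.45 over 42 members, against −0.04 over all tested genes, and 41 of 42 were positive, as were 5318 of all 11489. The exception was *psmc3ip* (−0.40). The 29 core, base and lid members were all positive, with a median of 0.48 and a range of 0.01 (*psmc2*) to 1.05 (*psma6l*). Over the alternatives their median lay between 0.33, without WT replicate 2, and 0.65, without WT replicate 3, and 26 to 29 of them stayed positive. Summed levels of markers of other tissues also differed in this comparison. For 11 intestine markers the sum was 7753 to 9204 CPM in overfed libraries, against 4726 to 6703 CPM in WT libraries, with no overlap. Of the 9 intestine markers tested, however, 4 had a positive log2 fold change and the median was −0.94. The higher sum thus does not describe the whole list. For 15 exocrine pancreas markers the sum was 525 to 5648 CPM in overfed libraries, against 1363 to 72084 CPM in WT libraries. These sums overlap, but 0 of the 15, all tested, had a positive log2 fold change, and the median was −2.65. By edgeR 0 of them had an unadjusted p under 0.05. The part of these tissues in the result was not tested. Every adjusted p was 0.9996 by edgeR quasi-likelihood, Benjamini-Hochberg.

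In overfed livers the median was 0.57 over the 15 core genes and 0.30 over the 14 base and lid genes, a difference that was not tested. *psmb3*, a structural beta subunit, was at 114, 157, 134 and 130 CPM in overfed libraries, against 101, 53.8, 114 and 69.8 CPM in WT libraries (0.70, standard error 0.27, unadjusted p = 0.0217). *psma4* was at 122, 146, 127 and 136 CPM in overfed libraries, against 94.1, 63.9, 119 and 60.0 CPM in WT libraries (0.68, standard error 0.30, unadjusted p = 0.0385). Overfed libraries lay close together, while WT replicates 1 and 3 were near them and WT replicates 2 and 4 were lower. WT replicates 2 and 4 are also those with the high pancreas markers above. WT replicate 4 was the highest WT library for the summed neutrophil (8395 CPM) and endothelial (853 CPM) markers. The neutrophil sum was next highest in WT replicate 2 (1514 CPM), and whether it differs apart from the pancreas sum was not tested. The median of the 29 members was 0.40 without WT replicate 4. For *psma3*, *psma4*, *psma8*, *psmc1a*, *psmc1b* and *psmd7* every overfed library lay above every WT library. These 6 of 42 members (14.3%) stand beside 2.37% of all genes higher without overlap, and 0 members beside 1.97% lower. As the members are correlated, the 6 are not separate observations. The library medians of the 29 members were 0.40, 0.57, 0.44 and 0.59 in overfed replicates 1 to 4, which overlap the WT medians above. The mean SD of these medians within a group, over all 4 groups, was 0.26. The WT medians spread more widely than the overfed ones, from −0.42 to 0.44.

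**Figure D3:**
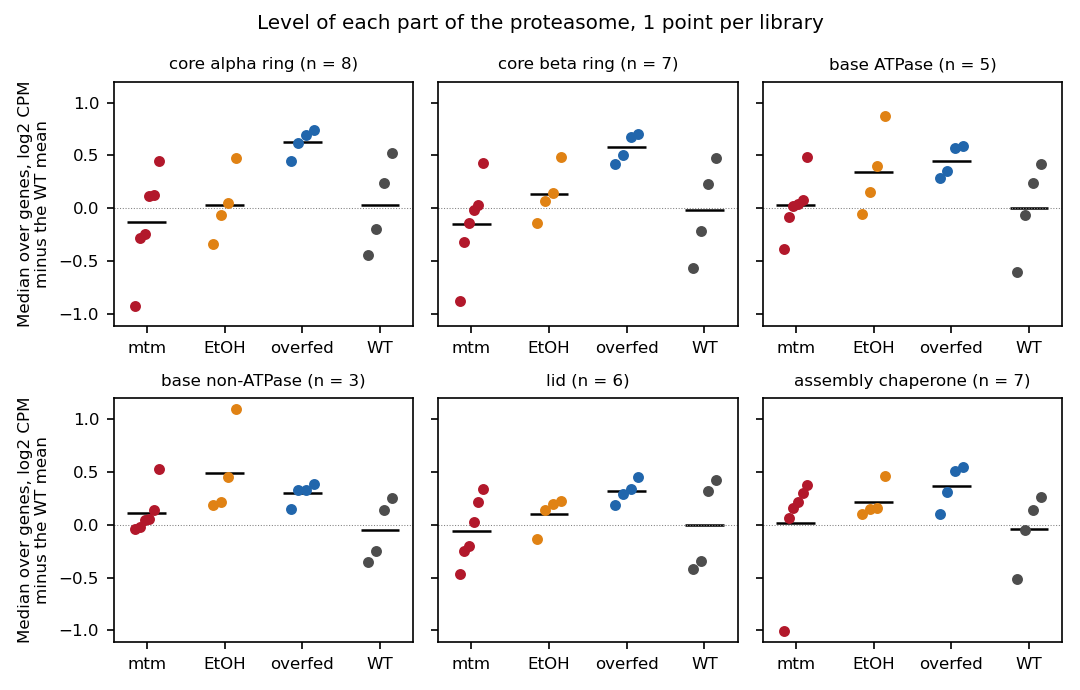
Median over the genes of each part of the proteasome, as log2 CPM minus the WT mean (y axis), with 1 point per library and a line at the group mean. For both core rings the overfed points lie above every WT point but that of replicate 3, and *mtm* R2 is the lowest point for the core rings and assembly chaperones.

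Of the immune-type beta subunits, *psmb10* encodes the subunit that replaces *psmb7* in the immunoproteasome. It was at 3.86, 13.2, 14.6, 9.79, 4.62 and 8.48 CPM in *mtm* replicates 1, 2, 3, R1, R2 and R3, against 4.87, 4.45, 4.24 and 5.96 CPM in WT replicates 1 to 4. Of the *mtm* libraries 4 lay above every WT library, 1 lay below them and 1 lay among them. The mean was 9.08 ± 4.36 CPM in *mtm* (SD, n = 6) and 4.88 ± 0.767 CPM in WT libraries (SD, n = 4), and the log2 fold change of 0.88 (standard error 0.44) did not pass, with an adjusted p of 0.190 (edgeR quasi-likelihood, Benjamini-Hochberg) (0.0588 to 0.428 over its alternatives). Without *mtm* replicate 1 it was 1.04, with an adjusted p of 0.107 (edgeR). EtOH libraries were at 3.14 to 8.55 CPM (0.01) and overfed libraries at 4.68 to 5.43 CPM (0.07).

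*psmb11b* is a zebrafish gene of the thymoproteasome type, named after a subunit that in mice takes the place of *psmb5* in thymic epithelium. It was at 3.03, 6.41, 6.12 and 5.42 CPM in EtOH replicates 1 to 4, against 1.62, 2.38, 0.718 and 1.28 CPM in WT replicates 1 to 4. Every EtOH library lay above every WT library. The highest were EtOH replicates 2 and 3, which also held the high muscle and pancreas sums above. The part of those tissues in the value was not tested. The level of *psmb11b* was low, at 730 counts over the 18 libraries. It was the only member to pass the test, with 1.84 in log2 fold change (standard error 0.53) and an adjusted p of 0.0419 (edgeR quasi-likelihood, Benjamini-Hochberg). The call was kept in 12 of 28 alternatives. The adjusted p was 0.1096 without WT replicate 1, 0.146 without WT replicate 3, 0.104 without WT replicate 4, and 0.118, 0.101 and 0.0871 without EtOH replicates 2, 3 and 4, all by the same edgeR test. It was also lost, at 0.0510 to 0.0632, without *mtm* replicate 3, R1 or R3 or without overfed replicate 1, 3 or 4. Those libraries are in neither group compared and bear on it through the shared filter, scaling, spread, replicate term and adjustment. The log2 fold change stayed between 1.58 and 2.18 over all alternatives. In *mtm* libraries *psmb11b* was at 2.68, 2.101, 2.14, 4.85, 3.58 and 3.56 CPM in replicates 1, 2, 3, R1, R2 and R3. Those of the resubmission were the 3 highest, and replicates 2 and 3 lay inside the WT range (1.105, standard error 0.50, adjusted p = 0.141 by edgeR quasi-likelihood, Benjamini-Hochberg). Overfed libraries were at 1.27 to 1.73 CPM (0.10).

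*psmb12*, whose reference synonym is beta1t, was too low to test. It had 0 CPM in 4 of 6 *mtm* libraries, with 0.107 and 0.396 CPM in replicates 1 and R3, against 0.130, 1.03, 0.718 and 0 CPM in WT libraries. EtOH libraries held 0, 1.39, 0.471 and 0.620 CPM and overfed libraries 0.505 to 0.884 CPM. Overfed libraries lay above all *mtm* libraries, a contrast that was not tested, and the *mtm*, EtOH and WT ranges overlapped. At 110 counts over 18 libraries these values rest on few reads.

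The ratio of an immune-type gene to its constitutive counterpart depends on library scaling only through the prior count, which weighs most on genes with few reads. On the log2 scale the ratio of *psmb10* to *psmb7* was 0.95 higher in *mtm* than in WT libraries (two-sided exact permutation test, p = 0.0524, smallest possible 0.00476). The ratio of *psmb11b* to *psmb5* was 1.82 higher in EtOH than in WT libraries (exact permutation p = 0.0571, smallest possible 0.0286) and 1.31 higher in *mtm* than in WT libraries (exact permutation p = 0.0667). After Benjamini-Hochberg adjustment over 16 exact permutation tests each had an adjusted p of 0.178, so none passed. For *psmb12* to *psmb6* the difference between *mtm* and WT libraries was −1.06 (exact permutation p = 0.200). As *psmb12* was at 0 in 4 *mtm* libraries and 1 WT library, that value depends on the prior count, and it ran from −1.82 to −0.49 over its alternatives.

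Markers of several cell types moved with these groups. In *mtm* versus WT livers 7 of 7 tested macrophage, 8 of 10 neutrophil and 4 of 14 endothelial markers rose, against 10.1% of all genes. In EtOH versus WT livers 3 of 7, 4 of 10 and 3 of 14 rose, against 4.66% of all genes. The summed level of the 14 macrophage markers in the table was 149 to 368 CPM in *mtm* and 38.5 to 88.0 CPM in EtOH libraries, against 12.9 to 21.4 CPM in WT libraries. For the 10 neutrophil markers it was 988 to 5188 CPM in *mtm* and 2586 to 5283 CPM in EtOH libraries, against 448.5 to 8395 CPM in WT libraries, so these sums overlap. The sums of the 12 erythrocyte markers overlapped as well, at 82.4 to 520 CPM in *mtm* and 189 to 397 CPM in EtOH libraries, against 127 to 1469 CPM in WT libraries. Of the 10 neutrophil markers, however, 8 had every *mtm* library and 5 every EtOH library above every WT library. These stand beside 6.88% and 8.06% of all genes, so the neutrophil sums do not describe every gene. Of 12 skeletal and heart muscle markers tested, 1 rose in EtOH livers, against 4.66% of all genes. Among the 12, 4 had every EtOH library above every WT library, against 8.06% of all genes. Without overlap, the 12 bile duct markers were at 2848 to 6027 CPM in *mtm* and 3253 to 4322 CPM in EtOH libraries, against 1045 to 2350 CPM in WT libraries. The 11 intestine markers were at 175 to 1082 CPM in *mtm* and 1479 to 1892 CPM in EtOH libraries, against 4726 to 6703 CPM in WT libraries. Of the 9 intestine markers tested, 2 had a positive log2 fold change in *mtm* and 4 in EtOH livers, so these sums do not describe every gene. Of 27 lymphocyte markers (T, NK and B cells) only 3 could be tested, of which *coro1a*, an actin regulator of many leukocytes, rose in *mtm* livers. Their summed level was 52.8 to 97.1 CPM in *mtm* and 28.2 to 43.7 CPM in EtOH libraries, against 12.8 to 43.3 CPM in WT libraries. Of the 27, 9 were at 0 in every *mtm* library, 10 in every EtOH library and 10 in every WT library, among them *gzma*, *gzmk* and *cd79b* in each group. The part of these cells in the values of the members was not tested.

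Of the activators, *psme1* and *psme2* form the PA28 ring that interferon induces in mammals. *psme1* was at 11.3 to 31.3 CPM in *mtm* and 13.5 to 26.9 CPM in WT libraries (−0.15, standard error 0.31), and *psme2* was at 10.7 to 31.8 CPM in *mtm* and 10.985 to 17.2 CPM in WT libraries (0.51, standard error 0.33). *psme4a*, a gene of the PA200 activator, was at 5.90, 4.48, 0.0994, 1.67, 12.1 and 5.76 CPM in *mtm* replicates 1, 2, 3, R1, R2 and R3, against 0.325, 0, 1.22 and 0.596 CPM in WT libraries. All *mtm* libraries but replicate 3 lay above every WT library. The log2 fold change of 3.16 (standard error 1.24) had an adjusted p of 0.0891 (edgeR quasi-likelihood, Benjamini-Hochberg), 0.0129 in DESeq2, and 0.0338 without *mtm* replicate 3 or 0.0484 without EtOH replicate 2 by the edgeR test. These 3 of 28 alternatives were the only ones in which *psme4a* passed. EtOH libraries also spread widely, at 0.0582, 7.62, 0.706 and 3.41 CPM (1.88, standard error 1.31).

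Assembly chaperones build the rings and the base before the parts meet. *psmg3*, which helps to start the alpha ring, was at 16.7 to 25.3 CPM in *mtm* and 17.8 to 24.0 CPM in WT libraries (−0.08, standard error 0.22). *psmg2*, a partner of *psmg1* in the same step, had the smallest value of the chaperones (−0.53, standard error 0.33), with *mtm* R2 at 3.82 CPM and the other *mtm* libraries at 13.7 to 18.7 CPM, against 15.6 to 22.3 CPM in WT libraries. *psmg1* in *mtm* R2 was at 0.557 CPM, against 20.1 to 27.3 CPM in the other *mtm* libraries. *psmd10*, a chaperone of the base also called gankyrin, had the largest value (0.89, standard error 0.58), with 4.61, 16.5, 12.7, 9.07, 10.4 and 7.12 CPM in *mtm* replicates 1, 2, 3, R1, R2 and R3, against 11.1, 1.86, 5.68 and 2.38 CPM in WT libraries. Only *mtm* replicates 2 and 3 lay above every WT library. *psmc3ip* was at 0 to 6.29 CPM in *mtm* and 1.86 to 3.25 CPM in WT libraries (0.20, standard error 0.94). In EtOH libraries it was at 0, 1.11, 1.49 and 1.47 CPM, below every WT library (−1.13, standard error 1.06).

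Genes around the proteasome were read from 4 lists, whose counts stand beside 10.1% of all genes higher and 8.59% lower in *mtm* livers, and 4.66% higher and 2.7% lower in EtOH livers. In lists of 11 to 21 genes these shares amount to a few genes at most, so the counts describe the lists and nothing particular to them is read from them. Among partners and assembly factors outside the symbol rule, 0 of 11 tested rose or fell in *mtm* versus WT livers (1 with an unadjusted p under 0.05, against 3490 of 11489 genes). The smallest adjusted p of the list was that of *akirin2*, which carries proteasomes into the nucleus in mammals (0.65, standard error 0.30, adjusted p = 0.149 by edgeR quasi-likelihood, Benjamini-Hochberg). *pomp*, which matures the core, was at 34.8 to 115 CPM in *mtm* and 40.9 to 87.7 CPM in WT libraries (0.22, standard error 0.32). In EtOH livers 1 of the 11 rose, *zfand2a*, a stress-induced gene whose product binds the proteasome. It was at 107, 140, 105 and 184 CPM in EtOH libraries, against 36.9, 39.1, 41.7 and 38.2 CPM in WT libraries (1.76, standard error 0.27, adjusted p = 0.00074 by edgeR quasi-likelihood, Benjamini-Hochberg). In *mtm* libraries *zfand2a* was at 29.8 to 67.3 CPM, and the direct test placed it lower in *mtm* than in EtOH livers (−1.72, standard error 0.25, adjusted p = 0.00223 by edgeR with Benjamini-Hochberg). *zfand2a* and *pomp* were singled out after their values were seen, as were *nfe2l1b*, *nbr1b*, *ubb*, *gbp1* and *usp14* among the genes that follow. *sem1*, a small lid protein, and *zfand5b* did not pass in *mtm* livers (0.40, standard error 0.24, and −0.53, standard error 0.28).

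Of 12 tested genes of the NFE2L1 and NFE2L2 pathway, 1 rose in *mtm* livers, a share below the 10.1% of all genes, and 2 rose in EtOH livers. *maff*, a small Maf partner of these factors, was at 111 to 187 CPM in *mtm* and 119 to 211 CPM in EtOH libraries, against 17.3 to 48.1 CPM in WT libraries. Neither group overlapped WT. Its log2 fold change was 2.22 (standard error 0.32, adjusted p = 0.00015) in *mtm* and 2.42 (standard error 0.33, adjusted p = 0.000326) in EtOH livers by edgeR quasi-likelihood, Benjamini-Hochberg. *keap1b*, which marks NFE2L2 for degradation, rose in EtOH livers (1.14, standard error 0.24, adjusted p = 0.00805 by edgeR with Benjamini-Hochberg). *keap1b* (0.64, standard error 0.23) and *nfe2l2a*, the NFE2L2 gene itself (0.65, standard error 0.24), did not pass in *mtm* livers. *nfe2l1b* was at 22.4 CPM on average in *mtm*, against 12.2 CPM in WT libraries (0.78, standard error 0.33, adjusted p = 0.122 by edgeR quasi-likelihood, Benjamini-Hochberg).

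Of 21 tested genes of ubiquitin, its shuttles and the p97 machinery, 3 rose and 1 fell in *mtm* livers and 2 rose in EtOH livers. *ubc*, a polyubiquitin gene, was at 244, 366, 412, 369, 228 and 309 CPM in *mtm* replicates 1, 2, 3, R1, R2 and R3, against 55.9, 63.8, 92.5 and 210 CPM in WT replicates 1 to 4. Every *mtm* library lay above every WT library (2.08, standard error 0.30, adjusted p = 0.000161 by edgeR quasi-likelihood, Benjamini-Hochberg). EtOH libraries were at 159 to 231 CPM (1.24, standard error 0.30, adjusted p = 0.0184 by edgeR with Benjamini-Hochberg). *sqstm1*, which carries ubiquitinated cargo to autophagy, was at 123 to 288 CPM in *mtm* and 126 to 276 CPM in EtOH libraries, against 32.5 to 74.4 CPM in WT libraries (1.91 and 1.77). *nbr1b*, another autophagy receptor, rose in *mtm* livers (1.24). The gene that fell was *hspa5*, a chaperone of the endoplasmic reticulum, with 59.12 to 159 CPM in *mtm* and 112 to 782 CPM in WT libraries (−2.04). *ubb*, a second polyubiquitin gene, was lower in *mtm* than in EtOH livers (−1.16, standard error 0.31, adjusted p = 0.0327 by edgeR quasi-likelihood, Benjamini-Hochberg).

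**Figure D4:**
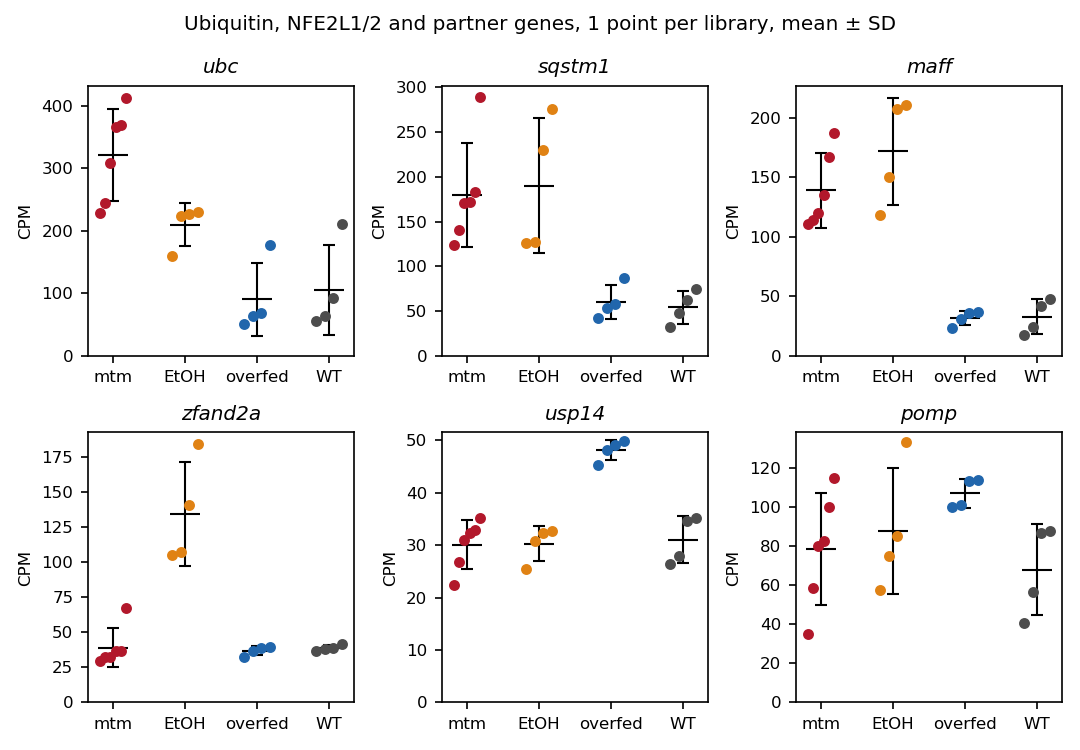
CPM of 6 genes around the proteasome (y axis, each panel from 0), 1 point per library, with the mean and SD of each group. *sqstm1* and *maff* are above every WT library in *mtm* and EtOH libraries, *ubc* in *mtm* libraries but not in all EtOH libraries, *zfand2a* in EtOH libraries, and *usp14* in overfed libraries.

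Of 18 tested genes of interferon response and class I antigen processing, 1 rose and 2 fell in *mtm* livers, and 1 rose and 1 fell in EtOH livers. The gene that rose in both was *irf8*, a factor of the macrophage lineage (3.00 in *mtm* and 2.36 in EtOH livers). The genes that fell in *mtm* livers were *calr3a* and *calr3b*, which encode calreticulins of the endoplasmic reticulum (−1.37 and −1.54), and the one that fell in EtOH livers was *gbp1* (−2.02). In overfed livers 0 genes of the 4 lists rose or fell by edgeR's quasi-likelihood test. An unadjusted p under 0.05 was found for 3 of them, against 493 of 11489 genes. The smallest of the 3 was that of *usp14*, a deubiquitinase bound to the 19S cap. It was at 48.1, 49.9, 45.4 and 49.0 CPM in overfed libraries, against 35.1, 27.8, 34.6 and 26.5 CPM in WT libraries, with no overlap (0.63, standard error 0.22, unadjusted p = 0.00952, adjusted p = 0.983 by edgeR quasi-likelihood, Benjamini-Hochberg).

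In the *abcb11b* experiment WT sibling replicates 1 and 2 had the same value for each of 19707 genes and were counted as 1 library, which leaves 3 libraries labelled mutant against 2 labelled WT sibling. The gene named ABCB11 in the reference table had 108, 69 and 165 counts in the libraries labelled mutant, against 0 and 7 counts in those labelled WT sibling, so directions are given between libraries as labelled. Of the 43 members 31 were matched by symbol and 28 could be tested. By edgeR's Benjamini-Hochberg adjusted quasi-likelihood test 0 were higher and 0 lower, against 1.41% and 0.982% of 11201 genes. An unadjusted p under 0.05 was found for 3 of the 28, against 2117 of 11201 genes. With the identical columns kept as separate libraries 2 members were lower, and calls over all genes were not counted there. The median log2 fold change was −0.26, against −0.02 over all genes.

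*psmd10* was at 0.658, 1.05 and 0.941 CPM in the libraries labelled mutant, against 2.90 and 2.92 CPM in those labelled WT sibling (−1.71, standard error 0.41, adjusted p = 0.0897 by edgeR quasi-likelihood, Benjamini-Hochberg). These values rest on 9 to 29 counts a library. The other members with an unadjusted p under 0.05 were lid genes. *psmd6* was at 55.7, 47.0 and 58.1 CPM in the libraries labelled mutant, against 79.4 and 76.2 CPM in those labelled WT sibling (−0.54, standard error 0.19), and *psmd14* was at 28.2, 28.1 and 30.5 CPM, against 38.3 and 41.6 CPM (−0.46, standard error 0.18). Neither passed after adjustment. Of the immune-type genes matched by symbol, *psmb11b* had 0 counts in all 5 libraries, and *psmb12*, *psmb8*, *psmb9* and *psmb13a* had 0 or 1 count in each. *psmb10* was not matched by symbol, so its level in these libraries was not examined.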

How the data were processed

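Bulk RNA of pooled zebrafish livers was used. Reads were trimmed by the authors with Trim Galore 0.6.6 and quantified with Salmon against GRCz11, and the deposited values are estimated counts of each gene, rounded and not normalized. They used DESeq2 with replicate as a covariate. Groups came from the sample labels. The members and gene lists were chosen with earlier results of these data known.

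Genes were filtered as stated in the results, scaled by TMM and tested in edgeR 4.0.16 (R 4.3.3), in 1 fit of the 18 libraries with group and replicate number and no limit on fold change. CPM were computed against the TMM-scaled library total. Non-overlap was read from CPM. Log2 values by library used a prior count of 2. Ratio tests were exact permutations in Python 3.11.15 with scipy 1.17.1. The edgeR fit was tried on simulated data with 200 changed genes, whose changes were far larger than those of most members. That trial therefore does not show whether changes as small as those of most members would be found.

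Named genes were the immune beta members, members past an adjusted p of 0.05, in each role the member with the highest WT level and those with the largest and smallest log2 fold change in *mtm* versus WT livers, and 3 genes per pathway list with the smallest adjusted p. Members given for their role or their spread in other comparisons were added after values were seen. The covariate was kept as in the study. Alternatives were DESeq2 1.42.0, its size factors, other filters, a fold limit, other sets of libraries, no covariate, and each library left out. Transcript estimates of the *abcb11b* libraries were not used here.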

Additional observations from a re-analysis of the deposited data

Results flagged for a closer look

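In 136 sets of values, 7 single libraries stood apart from the rest of their group, where chance flags about 1 in 20 groups, or 6.8 here. In *mtm* R2, *psmg2* was at 3.82 CPM, against 13.7 to 18.7 CPM in the other 5 *mtm* libraries, and the median of the assembly chaperones was −1.01 on the log2 scale against the WT mean, against 0.07 to 0.38. In *mtm* replicate 2, the median of the base subunits that are not ATPases was 0.52, against −0.04 to 0.14 in the other *mtm* libraries. In *mtm* R3, *psmb12* was at 0.396 CPM, against 0 to 0.107 CPM, and the log2 ratio of *psmb12* to *psmb6* was −6.88, against −9.34 to −8.54. In overfed replicate 3, *psmd4b* was at 31.4 CPM, against 35.5 to 35.7 CPM in the other overfed libraries. In WT replicate 1, *psmc3ip* was at 3.25 CPM, against 1.86 to 1.94 CPM in the other WT libraries.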

How the results depend on the processing

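The called value of *psmb11b* in EtOH livers kept its sign in every alternative, at 1.58 to 2.18. The untested medians over core, base and lid members did not all keep theirs, at −0.33 to 0.16 in *mtm* and −0.03 to 0.31 in EtOH versus WT livers and −0.44 to 0.04 in *mtm* versus EtOH livers. In *mtm* versus WT livers the members called higher were 2 with DESeq2 (*psma6l* and *psme4a*), 1 with *mtm* replicates 1, 2 and 3 alone (*psmd9*), 1 after same-numbered *mtm* libraries were added up (*psma6l*), and 0 to 1 with single libraries left out, against 0. In EtOH versus WT livers the members called higher were 0 with a log2 fold limit of 2, without a filter on low counts or with only both groups fitted, 2 without the replicate block (*psmb11b* and *psmd4a*), 3 with DESeq2 or with summed *mtm* libraries, and 0 to 2 with single libraries left out, against 1. In *mtm* versus EtOH livers 1 member was lower with DESeq2 and 0 to 1 with single libraries left out, against 0. In the *abcb11b* experiment 2 members were lower with the identical columns kept as separate libraries, against 0. Calls over all genes were not counted in the alternatives, so no share stands beside these counts. Pooled over all groups, same-numbered libraries did not deviate together, with correlations of −0.23 to 0.34 over 30 pairs and a median of −0.003. Between WT and overfed libraries, however, the correlations were 0.22, −0.12, 0.26 and 0.34 for replicates 1 to 4. Pairs of different number there ran from −0.36 to 0.27. Whether the replicate numbers pair those libraries is thus not settled. Low levels of *psmb12* and, in part, of *psme4a* and *psmb11b*, and 4 WT libraries that spread by as much as the groups, limit what could be detected. The alternatives for the medians over core, base and lid members, the ratio of *psma6l* to *psma6b* and *psmd4a* were chosen after seeing the data.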

Other observations

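*psme3*, which encodes the PA28-gamma activator of the nucleus, was listed at 0 in all 18 libraries of the 40-liver table but held 119 to 162 counts in every library of the *abcb11b* experiment. The reverse held for *psmb11b*, which had 730 counts over the 40-liver libraries and 0 in the *abcb11b* libraries. The tables were made separately, and the cause was not tested. The genes *psmd1* and *psmc3* were listed at 0 in the *abcb11b* libraries.

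Across the 18 libraries, as a description, *psmb11b* had a Pearson correlation of −0.51 with the mean of 14 core genes, *psme4a* of −0.41, *psmb10* of −0.03 and *psma6l* of 0.30. The lid gene *psmd6* and the base gene *psmd2* were at 0.21 and 0.22, against 0.92 for the ATPase gene *psmc6* and 0.87 for the lid gene *psmd11b*. After group means were taken out, *psmd6* was at 0.11 and *psmd2* at −0.13, against 0.91 for *psmc6* and 0.87 for *psmd11b*. In the same way *psmb11b* was at −0.66, *psme4a* at −0.31, *psmb10* at 0.29 and *psma6l* at 0.51. The last is near the 0.56 of *psma6b*. The SD over the 29 core, base and lid genes within a library was taken on log2 CPM minus each gene's WT mean. It was 0.35 to 0.86 in *mtm*, 0.31 to 0.58 in EtOH and 0.20 to 0.29 in overfed libraries, against 0.13 to 0.26 in WT libraries. As the WT libraries set that mean, their SD is small in part by construction, so nothing is read from this contrast.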
